A study of Homo sapiens with 6 samples.

Results

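Immediate early genes and the negative feedback genes of the mitogen-activated protein kinase (MAPK) cascade were examined in EoL-1, an established human cell line from an eosinophilic leukaemia. The 33 members were listed by gene name: EGR1 to EGR4, IER2, IER3 and IER5, 5 dual-specificity phosphatase genes (DUSP1, DUSP2, DUSP4, DUSP5, DUSP6), 6 Sprouty and SPRED genes, ETV4 and ETV5, 4 Krüppel-like factor genes (KLF2, KLF4, KLF6, KLF10), NR4A1 to NR4A3, PHLDA1, CCND1, ZFP36, SRF, CCN1 and CCN2. All 33 had an entry among the 35385 genes of the count table. PolyA RNA was sequenced in 3 libraries whose genotype is given as JUN knockout and in 3 given as ATF3/JUN double knockout, so both groups lack JUN by label and the genotype labels differ in ATF3. The treatment text names CRISPR/Cas9 and an ATF3 knockout for all 6 libraries, those labelled JUN knockout included. It does not describe how JUN was edited, and no guide sequence is given. No unedited sample was analysed here. Nothing in the labels states separate cultures, so a p-value here reflects only how far the libraries spread, which may be technical, while codes in the file names are shared by libraries of the same number.

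Growth factor receptors and oncogenic tyrosine kinases activate RAS, which switches on the kinases RAF, MEK and ERK in turn. ERK then phosphorylates factors bound with SRF at immediate early promoters, and genes such as EGR1 and IER2 are transcribed without new protein synthesis. The same signal induces its own brakes: DUSP phosphatases remove phosphate from MAP kinases, and Sprouty and SPRED proteins act upstream on RAS and RAF. EoL-1 carries the FIP1L1::PDGFRA fusion, a constitutively active tyrosine kinase. JUN and ATF3 are basic leucine zipper factors that bind AP-1 and cyclic AMP response element (CRE) sequences, and their own genes are immediate early genes.

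Promoter sequence shows which members carry the sites of these factors next to their start. RefSeq windows (GRCh38.p14, 250 bases before to 50 after a start) were found for 23 of the 33 members, in 32 windows. The other 10 are IER3, NR4A2, ETV4, ETV5, CCND1, DUSP4, DUSP5, CCN1, KLF10 and EGR3. Motifs were searched on both strands, and none of the 5 contains another. The CArG box bound by SRF was in 3 of the 32 windows, those of EGR1, EGR2 and SRF itself, and in 1.29% of all 35116 windows. The full CRE TGACGTCA was in 1 window, that of DUSP1, and in 1.85% of all windows. The AP-1 site TGACTCA was in 2 windows, of SPRED2 and SPRED3, and in 4.95% of all windows. The ETS site CCGGAAGT (4.14% of all windows) and the EGR site GCGTGGGCG (0.795%) were in 0 of the 32. A match is a description of the letters and not a bound site. The stretches below are shown because they hold the sites of SRF and of the factor families that were edited. They are written 5′ to 3′ on the gene's strand and end before the start, with the matched motif in capitals.
EGR1, CArG boxes, chr5:138465354-138465425, plus strand: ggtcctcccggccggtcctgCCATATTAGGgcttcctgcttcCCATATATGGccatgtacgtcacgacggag
EGR2, CArG box, chr10:62816408-62816457, minus strand: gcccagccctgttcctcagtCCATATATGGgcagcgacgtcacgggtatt
SRF, CArG boxes, chr6:43171219-43171268, plus strand: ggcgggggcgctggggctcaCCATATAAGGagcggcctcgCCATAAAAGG
DUSP1, CRE, chr5:172771293-172771340, minus strand: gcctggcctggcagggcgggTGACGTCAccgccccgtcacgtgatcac
SPRED3, AP-1 site, chr19:38389711-38389757, plus strand: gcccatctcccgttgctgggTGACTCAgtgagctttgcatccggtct

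The 6 libraries held 26146998 to 29567970 estimated reads. The mRNA level of a targeted gene is not a check of an edit that can leave the mRNA in place, and both targeted genes had reads in all 6 libraries. Levels are given as CPM (read counts scaled to a common library size) with factors from the trimmed mean of M values (TMM). ATF3 was at 19.6, 13.3 and 8.64 CPM in JUN knockout replicates 1, 2 and 3 and at 12.7, 9.76 and 7.42 CPM in double knockouts (log2 fold change −0.48, edgeR adjusted p = 0.928). JUN was at 12.9, 26.4 and 23.9 CPM and at 13.4, 16.1 and 25.0 CPM. Marker mRNA matched the eosinophil label in small part, as 4 of the 13 eosinophil markers passed the low-count filter. RNASE2 (eosinophil-derived neurotoxin) was at 66.4 ± 33.1 and 67.3 ± 16.8 CPM (SD, n = 3 each), while EPX, PRG3, CLC, IL5RA and GATA1 had 0 reads in all 6 libraries. RNASE3 was at 11.09 and 12.65 CPM on average, ADGRE1 at 0.799 and 0.739 CPM and CEBPE at 0.373 and 0.409 CPM. The 13 eosinophil markers summed to 36.9 to 109 CPM in JUN knockouts and 61.8 to 103 CPM in double knockouts. The 10 monocyte and macrophage markers, of which LYZ was the most abundant, summed to 193 to 503 CPM and 276 to 592 CPM.

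No immediate early or feedback gene differed between the genotypes past the test. Of the 33 members, 25 passed the low-count filter, and edgeR's quasi-likelihood test called 0 of them at an adjusted p under 0.05, where it called 0.0% of all 13110 tested genes. The lowest adjusted p among the 25 was 0.854, for SPRY2. The log2 fold change (double knockout minus JUN knockout) was above 0 in 18 of the 25 (72.0%), against 50.9% of all tested genes. Its median over the 25 was 0.10, beside 0.00 over all tested genes (0.0036 before rounding). It ran from −0.33 for KLF10 to 0.57 for SPRY1. Unadjusted p was under 0.05 for 2 members (8.0%), IER3 and SPRY2, against 5.8% of all genes. Both were higher in double knockouts, against 2.93% of all genes with such a p in that direction. DESeq2 called 0 of the 25 where it called 0.473% of all genes with an adjusted p, limma-voom called 0 where it called 0.00763%, and edgeR with the replicate number as a block called 0 where it called 0.0%. With the block the lowest adjusted p of a member was 0.448, again for SPRY2, and 2 of the 25 had an unadjusted p under 0.05, against 9.92% of all genes. These were again IER3 and SPRY2, both higher, against 5.36% of all genes in that direction.

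The groups did not overlap in 4 members (16.0%, against 12.2% of all tested genes), and all 4 were higher in double knockouts (against 6.25% of all genes in that direction and 5.94% in the other): IER3, SPRY2, EGR1 and NR4A1. For each of these, exact two-sided permutation of the 6 CPM values gave p = 0.1, the smallest that 3 against 3 allow. Any gene without overlap has this value, so it adds nothing to the lack of overlap. In same-numbered pairs, 8 members (32.0%) were higher in double knockouts in 3 of 3 pairs, against 18.0% of all genes. KLF10 was lower in 3 of 3 pairs, the only member that was (4.0%, against 15.3% of all genes).

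**Figure D1:**
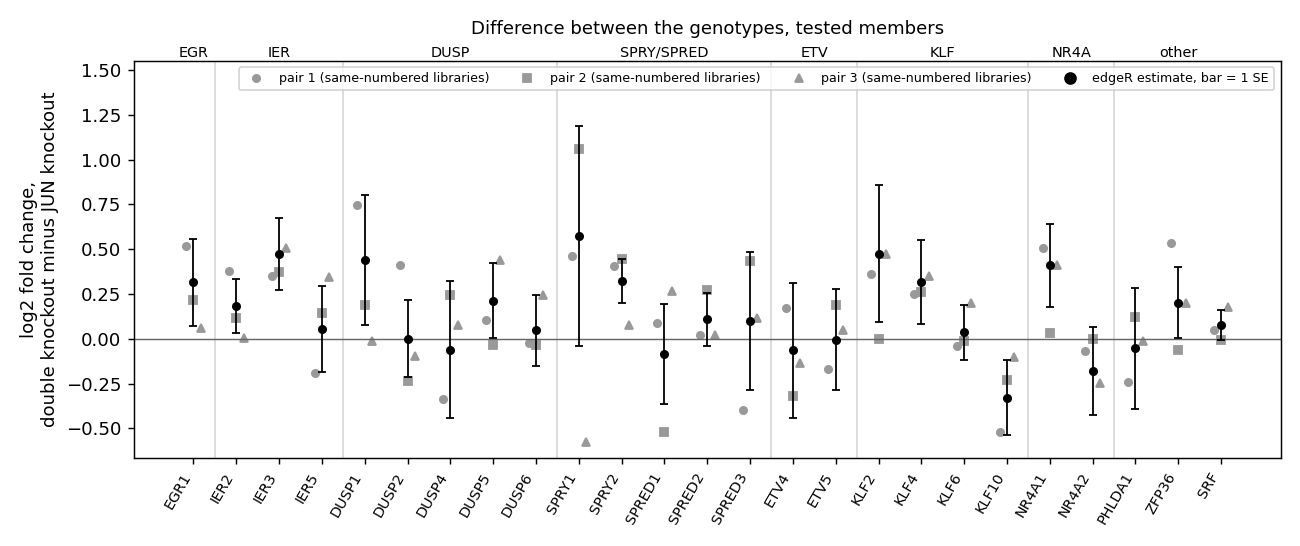
Log2 fold change of the 25 tested members by family, double knockout minus JUN knockout (black, edgeR estimate with bar = 1 SE), and the difference within each same-numbered pair of libraries (grey, log2 of CPM + 0.5). The black points lie between −0.33 and 0.57, and the 3 pairs of SPRY1 spread from −0.57 to 1.06.

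Levels between members can be compared per transcript length, in the TPM values of the deposited files, which correct for length and depth. A gene's TPM adds up its transcripts, so reads given to a short transcript weigh more, and close ranks are uncertain. In JUN knockout replicate 1 a DUSP6 transcript of 604 bases added 9.89 TPM, and in replicates 2 and 3 it had 0. In JUN knockout replicate 2, 1 read on an ETV5 transcript of 187 bases added 4.00 TPM. IER2 had the highest mean over the 6 libraries, at 45.02 TPM, followed by DUSP6 at 38.2, ZFP36 at 33.8, ETV5 at 22.9 and SRF at 22.1 TPM. KLF6, SPRED2, ETV4, IER5 and SPRY2 followed at 10.95 to 7.61 TPM. EGR1, a common marker of acute ERK signalling, was at 0.614 TPM, and NR4A1 at 0.724 TPM. The neighbours IER2 and DUSP6 did not differ beyond their spread, at 41.8 ± 5.34 and 38.2 ± 15.1 TPM in JUN knockouts (SD, n = 3). Among the 25 tested members the lowest were NR4A2 at 0.224, SPRED1 at 0.141 and SPRED3 at 0.137 TPM.

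**Figure D2:**
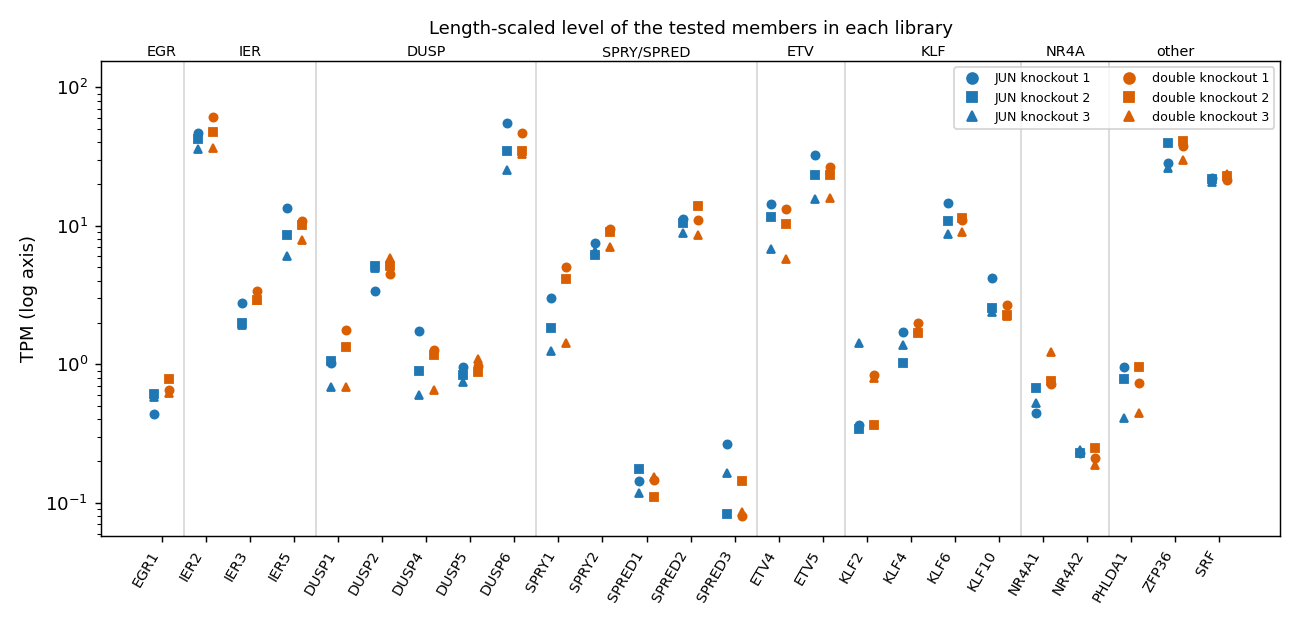
TPM of the 25 tested members in each library on a log axis, grouped by family, with JUN knockout in blue, double knockout in orange and a marker shape for each replicate number. IER2, DUSP6, ZFP36, ETV5 and SRF are the 5 highest by their mean, and their lowest point is 15.6 TPM, for ETV5.

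Among the transcription factors of the first wave, the zinc finger gene EGR1 (ENSG00000120738) was the only EGR gene that passed the filter. It was at 1.32, 2.03 and 1.98 CPM in JUN knockout replicates 1, 2 and 3 and at 2.11, 2.43 and 2.09 CPM in double knockouts, from 37 to 66 reads. The groups did not overlap, with the highest JUN knockout library just under the lowest double knockout library, and the log2 fold change was 0.31 (SE 0.24, edgeR adjusted p = 0.94). It was 0.14 without JUN knockout replicate 1, the lowest of the 6. EGR2 had 2 to 8 reads and EGR3 had 4 to 12 reads per library, and EGR4 had 0 in all 6.

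NR4A1, an orphan nuclear receptor gene, was at 1.14, 1.64 and 1.42 CPM in JUN knockouts and at 1.84, 1.69 and 2.06 CPM in double knockouts. These groups did not overlap either (log2 fold change 0.41, SE 0.23, edgeR adjusted p = 0.905). It rested on 32 to 60 reads per library, and the log2 fold change was 0.69 with a transcript length offset. Effective transcript lengths were the same in all files. Such an offset therefore varied between libraries only with how reads were shared among a gene's transcripts. NR4A2 was at 0.678, 0.699 and 0.786 CPM and at 0.625, 0.700 and 0.584 CPM, with overlapping groups and a log2 fold change of −0.18 (SE 0.24). NR4A3 had 0 to 3 reads per library. The NR4A family thus had 1 tested member above 0 and 1 below.

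The IER genes encode small nuclear or membrane-associated proteins of the early response. IER3 (ENSG00000137331), which restrains cell death, was at 2.89, 2.31 and 2.24 CPM in JUN knockouts and at 3.83, 3.13 and 3.40 CPM in double knockouts. All double knockout libraries were above all JUN knockout libraries, the pair differences were 0.35, 0.37 and 0.51, and the log2 fold change was 0.48 (SE 0.20, edgeR unadjusted p = 0.0492, adjusted p = 0.861). These reads were assigned entirely to transcripts of alternative copies of its region, the major histocompatibility complex on chromosome 6 (30743199 to 30744554 in GRCh38). The 2 primary-assembly transcripts of IER3 had 0 reads in all 6 libraries, so a count limited to the primary assembly lists it at 0. IER2 was at 94.4, 94.0 and 81.7 CPM and at 123, 102 and 81.8 CPM, with its groups overlapping (log2 fold change 0.18, SE 0.15), and the value was 0.0296 without double knockout replicate 1 and 0.32 without replicate 3 of that group. IER5 was at 55.0, 38.7 and 28.2 CPM and at 48.0, 42.9 and 35.9 CPM, a spread within the groups far wider than the difference between them (0.06, SE 0.24).

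Of the Krüppel-like factors, a family of zinc finger proteins, 3 of 4 had a log2 fold change above 0. KLF10, which is also induced by TGF-beta, was the exception, at 11.7, 7.83 and 7.44 CPM in JUN knockouts and at 8.04, 6.59 and 6.90 CPM in double knockouts (−0.33, SE 0.21, edgeR adjusted p = 0.919). JUN knockout replicate 1 stood above the other 5 libraries, and without it the log2 fold change was −0.09. KLF4 was at 4.78, 3.15 and 3.85 CPM and at 5.78, 3.87 and 5.05 CPM, higher in 3 of 3 pairs with overlapping groups (0.32, SE 0.23). KLF2, a gene of quiescence in leukocytes, was at 0.678, 0.699 and 1.05 CPM and at 1.02, 0.700 and 1.65 CPM (0.48, SE 0.38). It was highest in replicate 3 of both groups, and its log2 fold change ran from 0.09 when double knockout replicate 3 was left out to 0.72 when replicate 2 was. With a transcript length offset it was 0.0026. KLF6 was at 50.7, 42.9 and 34.7 CPM and at 49.2, 42.5 and 39.9 CPM (0.04, SE 0.15).

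SRF, the factor that binds the CArG boxes printed above, was at 92.5, 99.2 and 96.8 CPM in JUN knockouts and at 95.7, 98.8 and 109 CPM in double knockouts (log2 fold change 0.08, SE 0.08). It varied least of all tested members, 1.18-fold between its highest and lowest library. ZFP36, whose protein destabilises mRNAs with AU-rich elements, was at 39.0, 61.6 and 39.9 CPM and at 56.7, 58.9 and 45.9 CPM (0.20, SE 0.20). Its JUN knockout replicate 2 was above all the double knockout libraries, and without that library the log2 fold change was 0.44. Without JUN knockout replicate 1 the log2 fold change was 0.0853.

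Of the 5 dual-specificity phosphatase genes, 4 had a log2 fold change above 0 and none passed the test. DUSP6, the cytoplasmic phosphatase of ERK and the most abundant of the family, was at 106, 83.4 and 64.9 CPM in JUN knockouts and at 104, 81.5 and 77 CPM in double knockouts (log2 fold change 0.05, SE 0.20, edgeR adjusted p = 0.988). Pairs 1 and 2 differed by −0.02 and −0.03, while the highest JUN knockout library was 1.63-fold above the lowest. DUSP4, a nuclear phosphatase of the same kinases, was at 9.67, 5.52 and 3.78 CPM and at 7.57, 6.63 and 4.02 CPM (−0.06, SE 0.38). The first library of each group was again the highest and the third the lowest.

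DUSP1, the classic immediate early phosphatase and the member with the full CRE, was at 1.89, 2.17 and 1.42 CPM in JUN knockouts and at 3.51, 2.54 and 1.41 CPM in double knockouts. The groups overlapped, since replicate 3 was lowest in both (log2 fold change 0.44, SE 0.36, edgeR adjusted p = 0.945), and the log2 fold change was 0.11 without double knockout replicate 1 and 0.73 without replicate 3 of that group. DUSP2 was at 5.07, 8.14 and 8.34 CPM and at 6.91, 6.85 and 7.79 CPM, with group means of 7.18 CPM in both. DUSP5, a nuclear phosphatase of ERK, was at 2.21, 2.17 and 1.95 CPM and at 2.42, 2.10 and 2.82 CPM (0.21, SE 0.21).

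Among the inhibitors that act upstream of ERK, SPRY2 (ENSG00000136158, chromosome 13) had the lowest p of all members. It was at 16.2, 14.5 and 15.9 CPM in JUN knockouts and at 21.6, 19.9 and 16.8 CPM in double knockouts. The groups did not overlap, but pair 3 differed by 0.08 where pairs 1 and 2 differed by 0.41 and 0.44 on the log2 scale. The log2 fold change was 0.32 (SE 0.12, edgeR unadjusted p = 0.0356, adjusted p = 0.854). SPRY1 was at 4.53, 2.66 and 1.98 CPM and at 6.44, 6.08 and 1.17 CPM, a 5.52-fold range over the 6 libraries. It had the highest log2 fold change of the members (0.57) and the largest error (SE 0.61), since double knockout replicate 3 was the lowest library while the other two were the highest. Without double knockout replicate 3 the value was 1.03, and without double knockout replicate 1 it was 0.24.

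The SPRED genes encode membrane proteins that bind neurofibromin and hold RAS inactive. SPRED2 was at 43.2, 35.7 and 33.1 CPM in JUN knockouts and at 44.0, 43.3 and 33.6 CPM in double knockouts, slightly higher in 3 of 3 pairs with overlapping groups (log2 fold change 0.11, SE 0.15). SPRED1 was at 1.04, 1.43 and 0.973 CPM and at 1.13, 0.847 and 1.27 CPM (−0.08, SE 0.28). SPRED3, at 0.280 to 0.571 CPM in JUN knockouts and 0.312 to 0.552 CPM in double knockouts, rested on 8 to 16 reads per library (0.10, SE 0.38), and its direction turned with a transcript length offset (−0.65). SPRY4 did not pass the filter, with 1 to 18 reads per library.

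ETV4 and ETV5, ETS factors transcribed in response to ERK signalling, differed less between the genotypes than among the libraries of either. ETV5 (ENSG00000244405, chromosome 3, 186046308 to 186110318 in GRCh38, minus strand) stood at 121, 75.8 and 61.9 CPM in JUN knockouts and at 108, 86.3 and 64.1 CPM in double knockouts. Its group means were 86.3 ± 31.0 and 86.0 ± 21.8 CPM (SD, n = 3 per group; log2 fold change −0.00, −0.0045 before rounding, SE 0.28). ETV4 (ENSG00000175832, chromosome 17, 43527844 to 43579620, minus strand) stood at 23.6, 21.8 and 11.6 CPM and at 26.7, 17.3 and 10.6 CPM (log2 fold change −0.07, −0.065 before rounding, SE 0.38). PHLDA1, another transcript commonly read as ERK output, was at 5.57, 5.14 and 2.88 CPM and at 4.65, 5.63 and 2.85 CPM (−0.05, SE 0.34).

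For several of these genes the libraries differed by replicate number. In a comparison chosen after seeing the data, edgeR's quasi-likelihood F test of the replicate number, with genotype in the model, called ETV4 (adjusted p = 0.019) and ETV5 (adjusted p = 0.020). These 2 of 25 members are 8.0%, where 2.42% of all 13110 genes were called. Over both genotypes ETV4 was 2.26-fold and ETV5 1.82-fold higher in the libraries numbered 1 than in those numbered 3. DUSP4 (2.21-fold), DUSP6 (1.48-fold) and IER5 (1.61-fold) were also higher there but did not pass (adjusted p = 0.063, 0.0658 and 0.0763), and PHLDA1 was 1.78-fold higher (adjusted p = 0.102). In 9 members (36.0%) the library numbered 1 was the highest and that numbered 3 the lowest in both groups, against 11.4% of all genes: IER2, IER5, DUSP4, DUSP6, SPRY1, SPRED2, ETV4, ETV5 and KLF6. Unadjusted p of the same test was under 0.05 in 11 members (44.0%), against 20.7% of all genes. This order was noticed in the data, and the 9 genes are named for it without a test. JUN knockout replicate 1 and double knockout replicates 1 and 2 lay above the other libraries for ETV5, DUSP4, IER5, SPRED2 and SPRY1. For IER2 they did so narrowly (94.4 against 94.0 CPM), and for ETV4, DUSP6 and KLF6 they did not. This split crossed the genotypes and the numbers and was not tested.

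**Figure D3:**
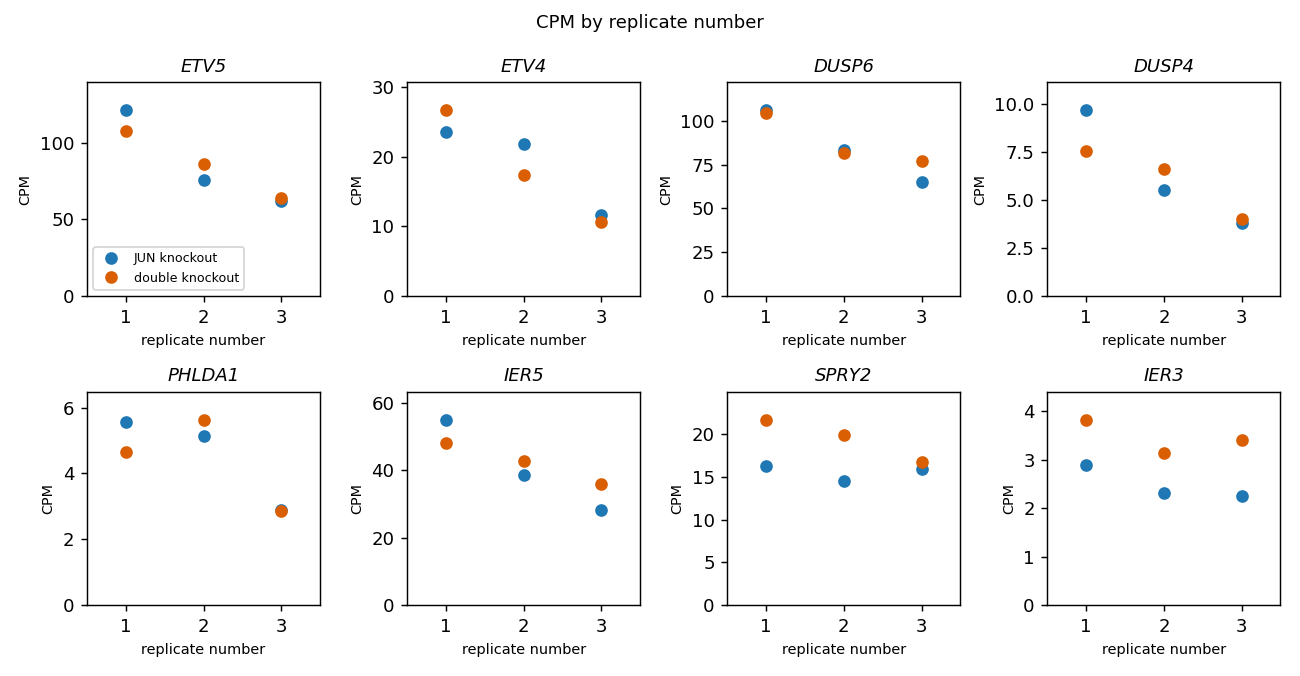
CPM of 8 members by replicate number, JUN knockout in blue and double knockout in orange, 1 point per library, each axis from 0. ETV5, ETV4, DUSP6, DUSP4, PHLDA1 and IER5 are lowest in the libraries numbered 3 of both genotypes, while for SPRY2 and IER3 the orange points lie above all the blue ones.

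Replicate number took the largest share of the sum of squares of log2(CPM + 0.5) in 18 of 25 members (72.0%), against 58.6% of all genes, and genotype took it in 3 members (12.0%, against 18.9%). The median share with replicate number was 65.0% over the members and 51.7% over all genes, and the median share with genotype 16.9% and 12.7%. ETV5 and PHLDA1 each had 95.7% of their variation with replicate number, ETV4 94.8%, DUSP4 92.5% and DUSP6 91.4%. At the other end, genotype took 73.9% of the variation of IER3, 63.8% of SPRY2 and 60.5% of NR4A1. These shares are descriptions, without a test.

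**Figure D4:**
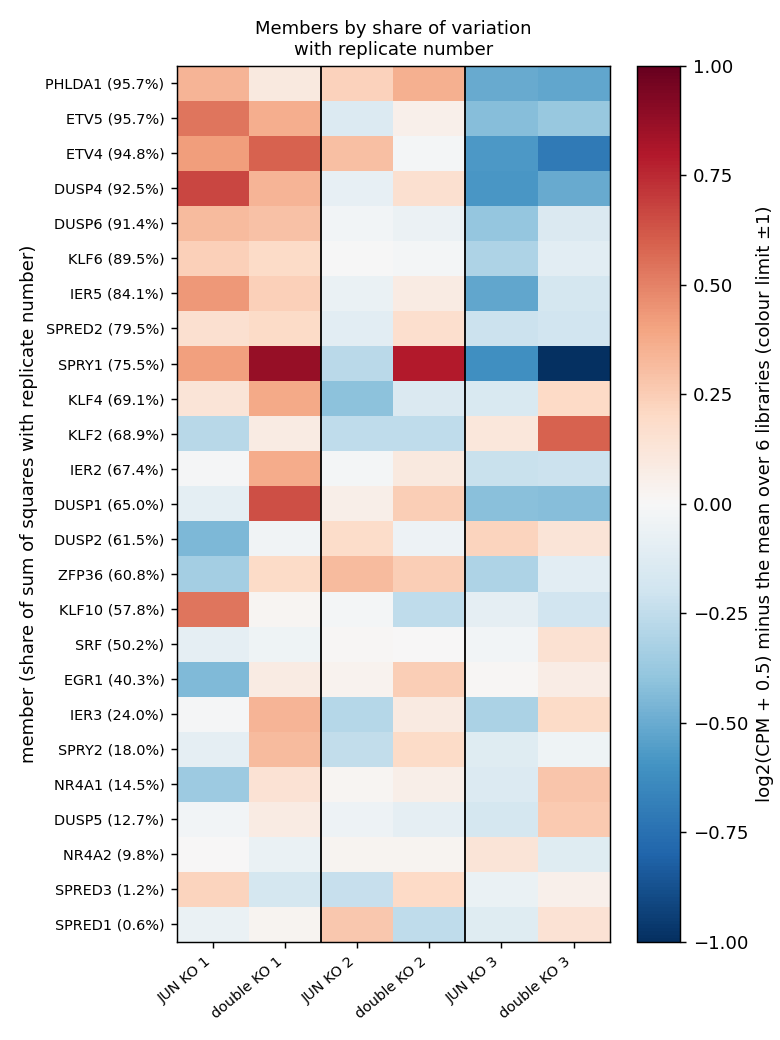
Deviation of each tested member from its own mean over the 6 libraries, in log2(CPM + 0.5), with the libraries ordered by replicate number and the members by the share of their variation that goes with it. PHLDA1, ETV5, ETV4, DUSP4 and DUSP6 are red (high) in both libraries numbered 1 and blue (low) in both numbered 3, and the members at the foot of the map show no such order.

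The call for ETV4 and ETV5 was lost with a transcript length offset (edgeR adjusted p = 0.0968 and 0.093, with 0 members called), and the ETV4 call without double knockout replicate 3 (0.0578). The offset varied between libraries only with the sharing of reads among transcripts. Without double knockout replicate 1 the same test called 9 members, and 21.5% of all genes. Other measures also differed between the libraries numbered 1 and those numbered 3. Heat shock and chaperone genes summed to 3765 to 6568 CPM in JUN knockouts and 4460 to 5944 CPM in double knockouts, lowest in number 1 and highest in number 3 of both groups. The 10 monocyte and macrophage markers (6 tested) summed to 193, 503 and 496 CPM and to 276, 362 and 592 CPM, again lowest in number 1. LYZ was the largest part, at 99.5, 369 and 361 CPM and at 136, 204 and 418 CPM. CD68 did not follow it in JUN knockouts (39.6, 34.8 and 39.4 CPM), and 0 of these markers were called for replicate number. The mitochondrial share of reads was 4.24%, 5.86% and 5.99% in JUN knockouts and 4.37%, 4.55% and 5.53% in double knockouts. For both sums and for the mitochondrial share, JUN knockout replicate 1 and double knockout replicates 1 and 2 lay below the other libraries. The libraries numbered 2 were thus on opposite sides. The part of these measures in the ETV4 and ETV5 differences was not tested. In a bulk sample, fewer cells expressing a gene and less RNA per cell cannot be told apart.

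Family sums, over all listed members, were highest in number 1 and lowest in number 3 of both groups for the DUSP, SPRY and SPRED, KLF, ETV and IER genes, and not for the EGR and NR4A genes. A sum mostly follows its most abundant gene, such as KLF6 (43.3 CPM on average) or DUSP6 (86.2 CPM). With tested members weighted equally, as mean log2 deviations, the KLF genes were lowest in number 2 of both groups (−0.171 and −0.167). The order by number held for the DUSP, SPRY and SPRED, ETV and IER genes. The ETV genes summed to 144.7, 97.6 and 73.5 CPM in JUN knockouts and to 134, 103.6 and 74.7 CPM in double knockouts. IER genes summed to 152, 135.0 and 112 CPM and to 175, 148 and 121 CPM. Summed CPM of the DUSP genes was 125, 101 and 80.4 in JUN knockouts and 125, 99.6 and 93.0 in double knockouts, with the number 1 libraries level with each other. The SPRY and SPRED genes summed to 65.7, 54.6 and 52.5 CPM and to 74.2, 70.6 and 53.4 CPM, overlapping between the genotypes. The KLF genes summed to 67.9, 54.6 and 47.0 CPM and to 64.1, 53.7 and 53.5 CPM. EGR genes summed to 1.54, 2.52 and 2.51 CPM and to 2.46, 2.73 and 2.33 CPM. NR4A genes summed to 1.93, 2.38 and 2.28 CPM and to 2.50, 2.39 and 2.64 CPM and did not overlap, although the nearest libraries of the 2 groups were at 2.38 and 2.39 CPM. Median log2 fold changes were 0.05 for the 5 tested DUSP genes, 0.11 for the 5 tested SPRY and SPRED genes, 0.18 for the 4 KLF genes, 0.11 for the 2 tested NR4A genes (0.115 before rounding) and 0.18 for the 3 IER genes, with 0 called in each. With a transcript length offset the KLF median turned to −0.0568.

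CCND1 (cyclin D1), the matricellular genes CCN1 and CCN2, and EGR4 had 0 reads in all 6 libraries. A limit of 3 reads per library corresponds to 0.103 to 0.117 CPM at this depth, and 0 reads cannot exclude a level below that. CCND1 is a standard ERK target in adherent cells, and CCN1 and CCN2 are SRF and YAP targets of adherent cells. EGR2, EGR3, SPRY4 and NR4A3 had reads but did not pass the filter. The highest of these was 18 reads, for SPRY4 in double knockout replicate 1, where the other 5 libraries had 1 to 5.

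Transcript estimates showed where a gene-level value is better determined than its isoforms. PHLDA1 reads were given to a transcript of 5741 bases in JUN knockout replicate 1 (147 reads, with 0 on one of 5913 bases), but to the transcript of 5913 bases in JUN knockout replicate 2 (147 reads, with 0 on the other). In the 3 double knockout libraries the longer of these had 0 reads. SPRY1 reads moved likewise between transcripts of 2348 and 2352 bases, which had 97.9 and 0 reads in JUN knockout replicate 1 and 0 and 52.9 in replicate 2. ETV5 was carried by 1 transcript of 4082 bases with 98.9% of its reads, and ETV4 by one of 2335 bases with 72.3%. No isoform difference was tested.

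The surrounding pathway, in lists of other genes, gave the same result for genotype. Of 34 tested genes of the RAS and ERK cascade, 0 were called in either direction. A log2 fold change above 0 was found in 22, against 50.9% of all tested genes, and the median was 0.03. NRAS, a RAS gene, had the lowest p of them, at 87.5 ± 3.89 CPM in JUN knockouts and 99.0 ± 2.78 CPM in double knockouts (SD, n = 3 per group; log2 fold change 0.18, edgeR adjusted p = 0.861). It was followed by GAB1, an adaptor of receptor signalling (1.89 ± 0.448 and 2.75 ± 0.526 CPM). RPS6KA1, an ERK-activated kinase, was the most abundant at 522 ± 61.6 and 556 ± 38.4 CPM. KSR1, the scaffold that holds RAF, MEK and ERK together, was called for replicate number (adjusted p = 0.0443). Of the 34 it was the 1 gene so called, against 2.42% of all genes. KSR1 was at 77.1, 37.3 and 24.1 CPM and at 67.7, 59.7 and 30.5 CPM, again highest in number 1 and lowest in number 3.

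Of 15 tested nuclear effectors of ERK, 0 were called (10 above 0, against 50.9% of all genes, median 0.05). The SRF partner genes ELK4 (56.0 ± 3.04 and 62.2 ± 3.72 CPM) and ELK3 (17.9 ± 3.16 and 15.4 ± 1.95 CPM) had the lowest p, and CIC, the repressor of ETV4 and ETV5 that ERK inactivates, was the most abundant (117 ± 11.2 and 127 ± 4.85 CPM). Of 9 tested genes for other MAPK phosphatases, 0 were called (6 above 0, against 50.9% of all genes, median 0.03). PTPN7, a leukocyte phosphatase of ERK, was the most abundant at 277 ± 37.6 and 269 ± 29.7 CPM. DUSP3 (95.6 ± 11.3 and 108 ± 3.98 CPM) and DUSP16 (0.512 ± 0.194 and 0.878 ± 0.66 CPM) had the lowest p.

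Of 35 tested immediate early genes outside the members, 0 were called, 25 were above 0 (against 50.9% of all genes) and the median was 0.08. MYC and ZFP36L2, an mRNA-destabilising relative of ZFP36, had the lowest p. ZFP36L2 was at 545, 562 and 534 CPM in JUN knockouts and at 654, 744 and 666 CPM in double knockouts, without overlap (log2 fold change 0.33, SE 0.08, edgeR adjusted p = 0.739). MYC, the most abundant, was at 537, 559 and 574 CPM and at 737, 737 and 698 CPM, without overlap (log2 fold change 0.38, SE 0.07, edgeR adjusted p = 0.614). Such a lack of overlap was found in 12.2% of all tested genes. The replicate number test called 4 of the 35 genes, where it called 2.42% of all genes: ATF3 (adjusted p = 0.04), BTG1, PPP1R15A and FOSL1. ATF3, BTG1 and PPP1R15A were highest in number 1 and lowest in number 3 of both groups, and FOSL1 had the opposite order, at 5.10, 9.85 and 11.1 CPM and at 5.70, 8.17 and 13.0 CPM. Of 10 tested heat shock and chaperone genes, 1 was above 0 and 0 were called for genotype (median −0.15, −0.145 before rounding). The one above 0 was HSPA8, the most abundant, which was at 2084 ± 426 and 2236 ± 262 CPM, and HSPH1 and HSPD1 had the lowest p (log2 fold change −0.35 and −0.14). The replicate number test called 2 of the 10, DNAJA1 and BAG3, against 2.42% of all genes.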

How the data were processed

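Per the submitters' processing notes, FastQC 0.11.9 and Salmon 1.6.0 were used with the build hg38. Per the file headers, the authors deposited an estimated count and a TPM value for each of 177456 transcripts in each of 6 libraries. Salmon shares reads that fit several transcripts among them. Transcripts were joined to GENCODE release 29: 167027 matched the primary assembly and 7621 transcripts of alternative copies were added to the gene of the same symbol through GENCODE's metadata. The other 2808 (0.807% to 0.863% of reads) were left out. The second step gave IER3 its reads. The estimated counts of a gene's transcripts were added up and rounded to whole numbers. The total was 26146998 to 29567970 per library, and intervals and floors cover counting error only. Library pairs differed by a chi-square of at least 11.9 per gene, far above sampling noise, so all 6 were kept.

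The main test was edgeR 4.0.16 (R 4.3.3): filterByExpr, TMM, robust quasi-likelihood F test, two-sided, genotype as the single term, Benjamini-Hochberg adjustment at 0.05 over 13110 genes. SE is the log2 fold change divided by the square root of F. DESeq2 1.42.0 and limma 3.58.1 were alternatives. The procedure was tested on simulated data. For the genotype test these held no differences by replicate number, so its behaviour under such differences was not covered. Single values were compared by exact permutation. Pairing was checked by the correlation of deviations from the group means: 0.38, 0.15 and 0.45 for numbers 1, 2 and 3. JUN knockout replicate 1 with double knockout replicate 2 gave 0.08. By chi-square per gene, double knockout replicate 2 was nearer to JUN knockout replicate 1 (21.3) than to JUN knockout replicate 2 (29.2). The file names carry codes shared by same-numbered libraries, so the numbers were used as pairs and, in an alternative fit, as a block. The main test left the pairing out. All members were reported: those that passed the filter with their 6 values, the rest by reads. In each other list, the most abundant gene and the 2 with the lowest p were named, and genes called for replicate number were named after their values were seen. The members and lists were chosen with earlier results of these data known. The markers of T and NK cells (83.8 to 113.5 CPM summed, mostly NKG7), B cells (2.59 to 8.71), erythroid and megakaryocyte cells (0.516 to 1.05) and fibroblast and endothelial cells (16.2 to 23.5) had 0 genes called for genotype. The replicate number test called CD79A, the 1 tested B cell marker, where it called 2.42% of all genes.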

Additional observations from a re-analysis of the deposited data

How the results depend on the processing

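The call of 0 members for genotype held under every alternative run. Over all genes DESeq2 called 62 and limma-voom 1, where edgeR called 0. The replicate block changed no member's call (0 called), moved genes with an unadjusted p under 0.05 from 761 to 1300, and turned ETV5 from −0.0045 to 0.0218. Log2 fold changes near 0 also turned elsewhere. DUSP2 was −0.0041 with RLE size factors, −0.0039 with DESeq2 and −0.0011 with a filter of 1 CPM, and ETV5 was 0.0208 with limma-voom and 0.0048 without a filter. The 1 CPM filter left the NR4A median at 0.41. A transcript length offset gave medians of 0.18 for DUSP, −0.13 for ETV, −0.0568 for KLF and 0.28 for NR4A, with SPRED3 at −0.65 and KLF6 at −0.12. Alternatives chosen after seeing the data left out both libraries of a number. Without number 1 the medians over all tested members and over DUSP were both 0.13, with DUSP2 at −0.17, DUSP4 at 0.19, ETV5 at 0.13 and PHLDA1 at 0.0781. Without number 2 both medians were again 0.13 (0.1253), with SPRED1 at 0.25, SPRED3 at −0.32 and ETV4 at 0.0658. Without number 3 the median over all tested members was 0.0449, with IER5 at −0.0438, DUSP6 at −0.0276 and KLF6 at −0.0287.

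Leaving out 1 library at a time, the median over all tested members was lowest, at 0.0415, when double knockout replicate 1 was dropped and highest, at 0.241, when JUN knockout replicate 1 was. It ran from 0.0296 to 0.34 for IER, 0.0283 to 0.25 for DUSP, 0.0453 to 0.36 for SPRY and SPRED, −0.32 to 0.22 for ETV, 0.0655 to 0.27 for KLF and 0.031 to 0.16 for NR4A. Single genes ran from −0.15 to 0.34 for IER5, −0.20 to 0.12 for DUSP2, −0.32 to 0.38 for DUSP4, −0.11 to 0.24 for DUSP6, −0.21 to 0.10 for SPRED1, −0.12 to 0.42 for SPRED3, −0.45 to 0.21 for ETV4, −0.20 to 0.32 for ETV5, −0.0914 to 0.18 for KLF6 and −0.29 to 0.18 for PHLDA1. Among genes that kept their sign, the value ran from 0.10 to 0.31 for DUSP5, −0.25 to −0.11 for NR4A2, 0.0304 to 0.23 for SPRED2, 0.17 to 0.49 for KLF4 and 0.0168 to 0.12 for SRF. The replicate number test called 936 genes and 6 members with DESeq2, 922 and 5 without a filter, and 64 and 0 with the length offset (ETV4 adjusted p = 0.0968, ETV5 0.093, by edgeR). Leaving out 1 library it called 237 (without double knockout replicate 3) to 2873 genes (without double knockout replicate 1) and 1 to 9 members, with an edgeR adjusted p for ETV4 of 8.755e-05 to 0.0578. The cause of these shifts was not tested.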
